A study of Rattus norvegicus with 68 samples.

Results

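Nasal epithelial cells of rats that breathed 6 ppm formaldehyde for 13 weeks were compared with those of rats kept at 0 ppm for the same time. The 8 arrays, 4 in each group, were chosen by the dose and time in their labels out of 68 arrays in 17 groups, and 14217 genes were measured on each. All rats were male F344/CrlBR, aged 8 weeks at the start, and were held in whole-body chambers for 6 hours per day on 5 days per week. The tissue came from level II of the nose without the maxilloturbinate and the olfactory lining, and proteases released the cells. According to the submitters it was mainly transitional epithelium with a smaller share of respiratory epithelium. Other groups used here, of 4 rats each, breathed 10, 15, 2 or 0.7 ppm for 13 weeks, 6 or 0.7 ppm for 4 weeks, and 6 or 0 ppm for 5 days.

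Formaldehyde is a reactive gas that crosslinks proteins and DNA, and in rats the front of the nose takes up most of what is inhaled. Cells bind it to glutathione and oxidise it with the dehydrogenase encoded by Adh5, and aldehyde dehydrogenases such as Aldh2 act on free aldehydes. Transitional epithelium that is injured repeatedly can divide faster and turn into squamous epithelium, in which cells make keratins and a cornified envelope. The comparison asked which genes differed after 13 weeks at 6 ppm.

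The RNA integrity number ran from 8.3 to 8.6 at 6 ppm (n = 4) and from 7.3 to 7.7 at 0 ppm (n = 3 with a value). The groups did not overlap, and the two-sided exact permutation p of 0.0571 is the smallest this test can give for 4 against 3 arrays. Titles of the 0 ppm arrays carry the code ACO3 where those of exposed arrays carry HCHO, and what it stands for cannot be told apart from dose. Although the olfactory lining was discarded, 29 genes of olfactory neurons and their supporting cells were measured and 27 of them exceeded a log2 signal of 6 on at least 1 array. Their mean log2 signal was 8.67, 8.41, 10.41 and 9.66 in the 6 ppm rats, against 8.52, 9.95, 9.88 and 7.83 in the 0 ppm rats. It varied more within each group than between the groups, and with this level as a covariate limma called 2328 genes between 6 and 0 ppm, with all 1737 described next among them. With the RNA integrity number as a covariate it called 1438, of which 1153 were among the 1737 and 52.4% were increases. Across probe sets, arrays of a group correlated at 0.979 to 0.995 and arrays of different groups at 0.973 to 0.990.

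Of 14217 genes tested, 1737 (12.2%) were called in the 6 ppm rats relative to the 0 ppm rats, with 1072 up (7.54%) and 665 down (4.68%) (limma, Benjamini-Hochberg adjusted p under 0.05). Most changes were small, with a median size of 0.38 on the log2 scale among called genes and a range of 0.13 to 3.48. Of the called genes 347 changed by at least 1.5-fold (2.44% of genes tested), 224 up and 123 down, and 78 changed by at least 2-fold, of which 66 were higher. The 4 exposed arrays all lay above the 4 controls for 1374 genes (9.66%) and all below for 978 genes (6.88%). The split of the calls depended on the scaling, since 61.7% of them were increases on the deposited scale and 38.1% after each array was centred on its median. In such bulk samples, fewer cells of a type and less RNA per cell cannot be told apart.

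The largest increase of all genes tested was in a growth signal. Areg, which encodes amphiregulin, a ligand of the EGF receptor, had log2 signals of 9.30, 9.07, 8.28 and 8.13 in the 6 ppm rats, against 5.06, 5.87, 5.31 and 4.62 in the 0 ppm rats. The groups lay far apart, with the controls near the bottom of the array's range, and the fitted difference was 3.48 ± 0.32 (SE), or 11.1-fold (limma adjusted p = 2.49e-11). Ereg, which encodes the related ligand epiregulin, read 7.87, 7.67, 6.92 and 7.11 in the 6 ppm rats and 5.51, 5.39, 6.06 and 5.60 in the 0 ppm rats, 3.37-fold apart (limma adjusted p = 5.94e-07). Nrg1, a ligand of the related ErbB receptors, rose 1.56-fold (limma adjusted p = 0.00442). Hbegf, a further EGF receptor ligand, was called at 1.56-fold (limma adjusted p = 0.0128), but 1 exposed array reached 5.82, inside the control range of 5.53 to 5.89. Without the array of animal 316, against 2 ppm, with the RNA integrity number as a covariate or with only the 8 arrays fitted, Hbegf was not called. Lrig1, which restrains ErbB receptors, fell by 0.40 on the log2 scale (limma adjusted p = 0.00557), and Pdgfa, a ligand of another receptor tyrosine kinase, fell by 0.37 (limma adjusted p = 0.00153), a call lost with only the 8 arrays fitted. Of the 30 ligands, receptors and feedback genes measured, 7 were higher and 5 lower, and the median difference was 0.01. Without animal 316 the count of higher genes dropped to 3, and without 225 or 230 the count of lower genes was 2. With only the 8 arrays fitted, 3 were higher and 2 lower.

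AP-1 and immediate early genes encode transcription factors and other proteins of the early response to growth signals. Of the 28 measured, 6 were higher and 0 lower, with a median of 0.18, against 0.00 over all genes tested. Fosl1, an AP-1 subunit, read 8.49, 8.22, 7.53 and 7.71 in the 6 ppm rats, against 6.25, 6.21, 6.25 and 6.24 in the 0 ppm rats. Every exposed array stood above the tight control values, and the difference was 3.37-fold (limma adjusted p = 2.53e-08). Maff, a small Maf protein that pairs with Nrf2 and other bZIP factors, rose 4.23-fold (limma adjusted p = 6.87e-11), and Ier3, an immediate early gene of cell survival, rose 1.94-fold (limma adjusted p = 0.000177).

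Plaur, which encodes the receptor of urokinase at the cell surface, had signals of 8.86, 8.63, 7.50 and 7.56 in the 6 ppm rats, against 6.28, 5.99, 5.99 and 6.27 in the 0 ppm rats. The exposed animals fell into a higher and a lower pair, both above all controls, and the difference was 4.01-fold (limma adjusted p = 4.45e-07). Animals 316 and 317 were also the higher pair for Areg, Ereg, Fosl1 and Maff. Serpinb2, an inhibitor of plasminogen activators, rose 6.66-fold (limma adjusted p = 1.26e-05), and Plau, urokinase itself, rose 1.59-fold (limma adjusted p = 0.00781). Tnfrsf12a, the receptor of the cytokine TWEAK, rose 4.41-fold (limma adjusted p = 2.38e-08), and Mest, an imprinted gene, rose 4.14-fold (limma adjusted p = 5.58e-08). The Plau call was lost against 2 ppm and with the RNA integrity number as a covariate. Among wound repair and plasminogen genes, 5 of 42 were higher (11.9%) and 1 was lower (2.38%), against 7.54% and 4.68% of all genes tested. With that covariate 3 of the 42 were higher.

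**Figure D1:**
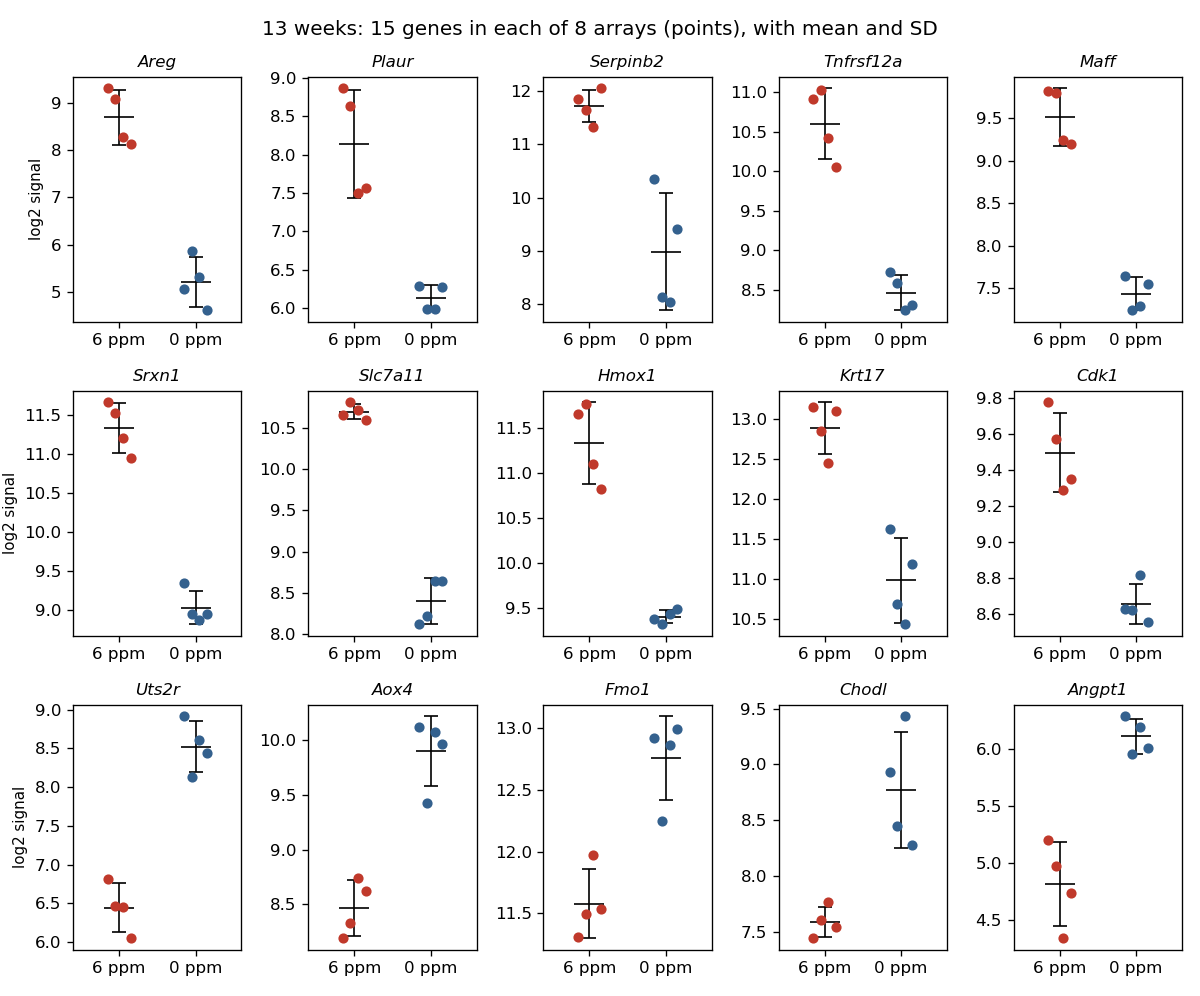
Log2 signal of 15 genes (vertical axes, scaled per gene) on each of the 8 arrays of 13 weeks, 6 ppm in red and 0 ppm in blue, with the mean and SD of 4 arrays. In each of these panels the 4 exposed arrays lie on 1 side of the 4 controls, above for the upper 10 genes (Areg 8.13 or more, against 5.87 or less) and below for Uts2r, Aox4, Fmo1, Chodl and Angpt1.

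Targets of Nrf2, the factor that switches on thiol and heme defence when its sensor Keap1 is modified, moved in both directions, with 16 of 61 measured genes higher and 7 lower. The median of the list was 0.05. Srxn1, which encodes sulfiredoxin and repairs oxidised peroxiredoxins, had the smallest adjusted p of all genes. Its log2 signals were 11.66, 11.52, 11.20 and 10.94 in the 6 ppm rats, against 9.34, 8.95, 8.87 and 8.94 in the 0 ppm rats. The difference was 2.30 ± 0.18 (SE), or 4.93-fold (limma adjusted p = 6.41e-14).

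Slc7a11, the cystine importer that feeds glutathione synthesis, read 10.65, 10.81, 10.72 and 10.59 in the 6 ppm rats and 8.12, 8.22, 8.64 and 8.64 in the 0 ppm rats. The exposed values lay in a narrow band well above the controls, and the fold was 4.88 (limma adjusted p = 4.87e-09). Hmox1, which degrades heme, rose 3.81-fold (limma adjusted p = 1.98e-08), and Akr7a3, an aldo-keto reductase of dialdehydes, rose 3.62-fold (limma adjusted p = 1.21e-05). Smaller increases were found in Gclc and Gclm, the subunits of the enzyme that starts glutathione synthesis, at 1.55-fold and 1.49-fold. Txnrd1, thioredoxin reductase, rose 1.54-fold, Nqo1, a quinone reductase, 1.49-fold, and Akr1b8, an aldose reductase relative, 1.77-fold (limma adjusted p = 0.000118, 2.58e-06 and 1.49e-06). Lower members were Gstm2, a glutathione transferase, down by 0.80 on the log2 scale, and Blvra, biliverdin reductase, down by 0.86 (limma adjusted p = 4.91e-05 and 0.00302). Without the control array of animal 225, 4 members were lower, and against 2 ppm 2 were.

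Few members of the list of formaldehyde, aldehyde and one-carbon metabolism were called, a list that does not hold Akr7a3, Akr1b8 or Aox4. Adh5, whose product oxidises formaldehyde bound to glutathione, read 11.86, 11.94, 12.17 and 11.91 in the 6 ppm rats and 12.03, 12.12, 12.15 and 11.83 in the 0 ppm rats. The groups overlapped, and the difference was -0.06 ± 0.11 (SE; limma adjusted p = 0.772). Aldh2, mitochondrial aldehyde dehydrogenase, fell by 0.43 on the log2 scale (limma adjusted p = 0.00899), a call that was lost without animal 230 and against 2 ppm. Psat1, of serine synthesis, rose by 0.58 on the log2 scale (limma adjusted p = 1.97e-06), and Mthfd1l, of mitochondrial folate metabolism, rose 1.51-fold at a low signal (limma adjusted p = 0.00842), a call lost with the RNA integrity number as a covariate. Of the 37 genes of formaldehyde, aldehyde and one-carbon metabolism, 3 were higher and 2 lower, shares close to those of all genes.

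Squamous genes were higher. Of 48 measured genes of the cornified envelope and squamous differentiation 17 were called higher and 0 lower, and 46 had a positive difference, with a median of 0.55. Krt17, a keratin of wounded and hyperplastic epithelium, read 13.15, 12.85, 12.45 and 13.10 in the 6 ppm rats and 11.63, 10.69, 10.43 and 11.19 in the 0 ppm rats, 3.73-fold apart (limma adjusted p = 1.72e-05). Krt12, a keratin best known from the cornea, rose 7.13-fold (limma adjusted p = 3.27e-06). Slurp1, a secreted Ly6 protein of keratinocytes, had signals of 11.84, 12.01, 11.42 and 12.27 in the 6 ppm rats, against 8.05, 8.35 and 9.52 in 3 of the 0 ppm rats (6.29-fold over all 4, limma adjusted p = 1.43e-05). The control of animal 225 stood well above these 3 and just below the exposed arrays.

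The same control was high for other cornification genes. Cnfn, which encodes the envelope protein cornifelin, read 11.15 to 12.27 at 6 ppm, against 11.05 in the control of animal 225 and 8.74 to 10.01 in the other controls (3.67-fold, limma adjusted p = 0.00572). Tgm1, the transglutaminase that crosslinks the envelope, rose 3.16-fold (limma adjusted p = 0.000684), and Sfn, the 14-3-3 protein of stratified epithelium, 2.01-fold (limma adjusted p = 0.000472). Without animal 225, 19 members were called higher. With the RNA integrity number as a covariate 10 were, and 11 were against 0.7 ppm or against 2 ppm, and the rats of those exposed groups had mean Cnfn signals of 10.67 and 9.96. The Cnfn call was lost against 0.7 ppm, with a difference of 0.87, and with only the 8 arrays fitted.

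Sprr1b, a small proline-rich envelope protein, read 9.20, 7.79, 8.00 and 9.02 in the 6 ppm rats and 7.13, 6.79, 6.38 and 6.78 in the 0 ppm rats. It rose 3.33-fold (limma adjusted p = 0.00205), with the exposed arrays more spread than the controls. Sprr3, a relative, was called at 3.91-fold (limma adjusted p = 0.036) but not against 0.7 ppm, where the difference was 0.57. Leaving out any 1 of animals 316, 319, 320, 226, 229 and 230 also ended the Sprr3 call. Basal keratins moved less. Krt14 rose 1.29-fold (limma adjusted p = 0.0118), a call lost without animal 316 or 229, against 0.7 ppm, with the RNA integrity number as a covariate and with only the 8 arrays fitted, while Krt5 differed by 0.02 ± 0.15 (SE; limma adjusted p = 0.944).

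The upstream sequences of 3 increased genes are shown because each holds the letters TGANTCA, where N is any base. That pattern takes in the site preferred by AP-1 dimers such as those with Fosl1 but is wider than it. Each run covers the 250 bases before the annotated start in RefSeq build GRCr8, 5′ to 3′ on the gene's strand, with TGANTCA in capitals.
Plaur, chr1:89181113-89181362, plus strand: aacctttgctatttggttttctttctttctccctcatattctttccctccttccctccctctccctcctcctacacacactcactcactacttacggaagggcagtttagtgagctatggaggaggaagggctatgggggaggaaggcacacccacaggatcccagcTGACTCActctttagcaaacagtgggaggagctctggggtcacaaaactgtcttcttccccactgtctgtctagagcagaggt
Sprr1b, chr2:180706356-180706605, minus strand: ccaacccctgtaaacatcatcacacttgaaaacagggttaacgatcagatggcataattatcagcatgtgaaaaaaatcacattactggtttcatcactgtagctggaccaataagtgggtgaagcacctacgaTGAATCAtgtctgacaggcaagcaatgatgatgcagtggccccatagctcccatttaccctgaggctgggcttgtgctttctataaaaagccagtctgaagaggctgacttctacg
Srxn1, chr3:161064562-161064811, plus strand: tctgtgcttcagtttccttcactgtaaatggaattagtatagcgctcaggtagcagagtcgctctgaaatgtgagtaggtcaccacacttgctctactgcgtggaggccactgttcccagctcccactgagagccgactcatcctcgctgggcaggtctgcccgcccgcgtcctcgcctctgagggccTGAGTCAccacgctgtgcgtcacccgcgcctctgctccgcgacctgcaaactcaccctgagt
The match lies 83 bases before the start in Plaur, 116 in Sprr1b and 62 in Srxn1. TGANTCA reads the same on both strands, and it occurred in 4.84% of the 11733 promoters of genes tested. Among squamous genes with a RefSeq promoter it occurred in 15 of 43, or 34.9%, made up of 8 of the 15 called higher and 7 of the 28 others. The antioxidant element core TGACNNNGC, sought on both strands, was in 10 of 52 promoters of Nrf2 list genes (19.2%) and in 12.3% of all. The 10 were made up of 2 of the 15 called higher and 8 of the 37 others. In 44 promoters a match of TGACNNNGC overlapped one of TGANTCA. No TGACNNNGC match lay in the 3 windows printed, and a match is a string of letters, not a measured site.

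**Figure D2:**
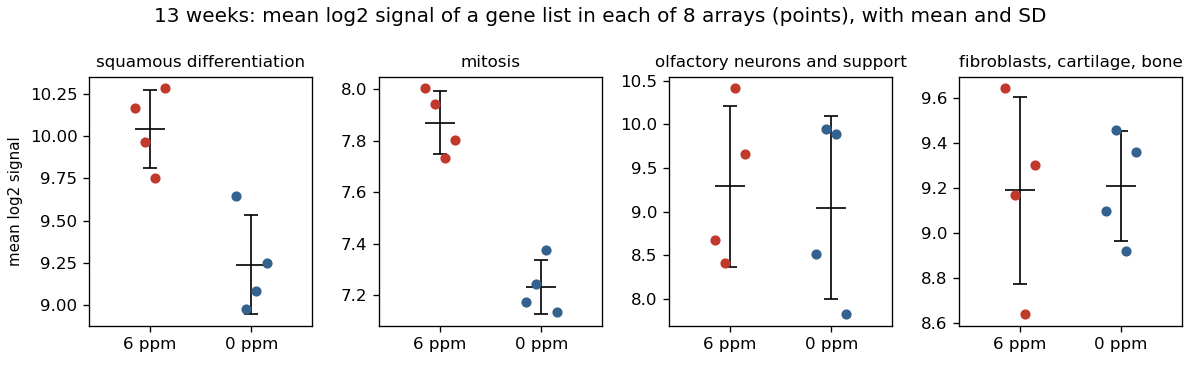
Mean log2 signal of 4 gene lists (vertical axes, scaled per list) on each of the 8 arrays of 13 weeks, 6 ppm in red and 0 ppm in blue, with the mean and SD of 4 arrays. The squamous and mitosis lists lie apart between the groups (mitosis 7.73 to 8.00 at 6 ppm, 7.14 to 7.38 at 0 ppm), while the olfactory and stromal lists overlap and spread widely within each group.

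Cell division genes showed the broadest change. Of 72 measured mitosis genes 55 were higher and 0 lower, or 76.4%, with a median of 0.67. The mean log2 signal of the list was 8.00, 7.94, 7.73 and 7.80 in the 6 ppm rats, against 7.17, 7.24, 7.38 and 7.14 in the 0 ppm rats, without overlap. Cdk1, the kinase that drives entry into mitosis, read 9.78, 9.57, 9.29 and 9.35 in the 6 ppm rats and 8.63, 8.62, 8.82 and 8.55 in the 0 ppm rats, 1.79-fold apart (limma adjusted p = 4.81e-06). Its cyclin partners rose as well, Ccnb1 1.85-fold, Ccnb2 2.17-fold and Ccna2 2.74-fold (limma adjusted p = 1.91e-06, 1.41e-06 and 1.26e-05). Ect2, which directs the cleavage furrow, rose 2.17-fold (limma adjusted p = 8.99e-09), and Bub1, a spindle checkpoint kinase, 2.36-fold (limma adjusted p = 2.75e-07). Mki67, the Ki-67 proliferation marker, averaged 8.39 ± 0.11 in the 6 ppm rats and 7.38 ± 0.36 in the 0 ppm rats (SD, n = 4 each; 2.02-fold, limma adjusted p = 0.00196). Against 2 ppm Mki67 differed by 0.44 on the log2 scale and was not called.

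Genes of S phase followed, with 25 of 58 higher and 0 lower and a median of 0.30. Pcna, the sliding clamp of DNA polymerases, read 12.17, 12.23, 12.11 and 12.03 in the 6 ppm rats, against a tight 11.71 to 11.77 in the 0 ppm rats, a rise of 1.31-fold (limma adjusted p = 8.37e-05). Uhrf1, which carries DNA methylation through replication, rose 2.09-fold (limma adjusted p = 0.000249). Over the alternatives tried, the mitosis count stayed between 48 and 59 and the S phase count between 18 and 32.

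The promoters of Cdk1 and Ccnb2 are printed because the mitosis genes moved together and these hold the letters known from cell cycle promoters. The element TTTGAA, the core of the cell cycle homology region bound by the MuvB complex, and CCAAT, bound by NF-Y, are in capitals, sought on both strands, in the 250 bases before the start in RefSeq build GRCr8.
Cdk1, chr20:19265043-19265292, plus strand: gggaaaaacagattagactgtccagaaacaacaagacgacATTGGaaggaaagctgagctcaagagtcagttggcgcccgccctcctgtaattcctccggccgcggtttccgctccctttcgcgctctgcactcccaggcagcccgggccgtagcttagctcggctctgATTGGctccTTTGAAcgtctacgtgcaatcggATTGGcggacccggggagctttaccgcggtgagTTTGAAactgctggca
Ccnb2, chr8:79981659-79981908, minus strand: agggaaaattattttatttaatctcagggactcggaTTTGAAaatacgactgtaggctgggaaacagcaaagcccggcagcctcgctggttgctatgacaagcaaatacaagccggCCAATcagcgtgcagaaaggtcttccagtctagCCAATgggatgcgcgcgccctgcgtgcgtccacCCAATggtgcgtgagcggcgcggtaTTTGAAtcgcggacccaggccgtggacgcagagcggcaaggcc
In Cdk1 TTTGAA begins 72 and 16 bases before the start, and CCAAT lies on the opposite strand, read as ATTGG, at 210, 81 and 49. Ccnb2 has TTTGAA at 214 and 43 bases before the start and CCAAT at 134, 101 and 68. Among 62 mitosis genes with a RefSeq promoter, 28 held TTTGAA (45.2%) and 46 held CCAAT (74.2%), while 10.9% and 35.1% of all 11733 promoters did. Among the mitosis genes called higher 23 of 50 held TTTGAA, as did 5 of the 12 that were not. In S phase genes TTTGAA was present in 4 of 51 promoters (7.8%). Matches of the pair overlapped each other in 8 of all promoters, and a match is again only a string of letters.

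Ribosome biogenesis genes, which make and assemble ribosomal RNA, were higher for 35 of 68 and lower for 0, with a median of 0.29. Lyar, a nucleolar regulator of rRNA processing, rose 1.56-fold (limma adjusted p = 7.68e-05), and Nop58, a core protein of the particles that methylate rRNA, 1.38-fold (limma adjusted p = 0.000158). With the RNA integrity number as a covariate 18 of the 68 were called higher.

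Chaperones rose in 12 of 32 heat shock and metallothionein genes, with 0 lower. Hspb1, the small heat shock protein Hsp27, read 10.61, 10.61, 10.21 and 10.76 in the 6 ppm rats, against 9.84, 9.51, 9.15 and 9.69 in the 0 ppm rats, 2.00-fold apart (limma adjusted p = 0.000957). Dnaja1, a partner of Hsp70, rose 1.47-fold (limma adjusted p = 3.35e-07), and Chordc1, a partner of Hsp90, 1.55-fold (limma adjusted p = 1.97e-06). The unfolded protein and integrated stress list held 3 higher (8.11%) and 1 lower (2.7%) of 37, close to the shares of all genes.

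Among p53 targets 6 of 29 were higher (20.7%) and 1 lower (3.45%), against 7.54% and 4.68% of all genes tested. Cdkn1a, the inhibitor p21 of cyclin-dependent kinases, read 10.43, 10.51, 9.98 and 10.41 in the 6 ppm rats and 9.46, 9.24, 9.24 and 9.30 in the 0 ppm rats, 2.03-fold apart and without overlap (limma adjusted p = 3.2e-07). Gdf15, a stress cytokine, rose 2.85-fold (limma adjusted p = 1.26e-05), Plk2, a stress kinase, 1.66-fold (limma adjusted p = 0.000318), and Mdm2, the ligase that degrades p53, 1.28-fold (limma adjusted p = 0.000416). DNA repair genes were called higher in 8 of 61 (13.1%) and lower in 1 (1.64%), beside the same shares of all genes. They included Chek1, the checkpoint kinase, at 1.67-fold and Ube2t, which attaches ubiquitin in the Fanconi pathway of crosslink repair, at 1.37-fold (limma adjusted p = 0.000351 and 0.00192). The repair count was 5 with the RNA integrity number as a covariate and when only the 8 arrays were fitted.

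The decreases were led by Uts2r, the receptor of the vasoactive peptide urotensin II. It read 6.82, 6.46, 6.46 and 6.05 in the 6 ppm rats, against 8.91, 8.13, 8.60 and 8.44 in the 0 ppm rats, 4.22-fold lower and without overlap (limma adjusted p = 3.37e-06). Aox4, an aldehyde oxidase, read 8.19, 8.33, 8.74 and 8.62 in the 6 ppm rats and 10.12, 9.43, 10.08 and 9.97 in the 0 ppm rats, 2.70-fold lower (limma adjusted p = 0.00118). Asgr2, a subunit of the asialoglycoprotein receptor, was 2.64-fold lower (limma adjusted p = 0.0109). Angpt1, a ligand of the vascular receptor Tie2, was 2.46-fold lower at a low signal, with 5.20, 4.98, 4.34 and 4.74 in the 6 ppm rats and 6.29, 5.96, 6.20 and 6.01 in the 0 ppm rats (limma adjusted p = 4.96e-06). Chodl, a membrane lectin, fell 2.28-fold (limma adjusted p = 0.0172), a call lost without animal 229. Against 2 ppm in place of 0 ppm, Uts2r fell by 1.03 and Angpt1 by 0.84 on the log2 scale and were called, while Asgr2 and Chodl were not. Asgr2 was not called against 0.7 ppm either.

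Oxidative metabolism of foreign compounds was lower for 10 of 52 measured genes and higher for 2, with a median of -0.15. Por, which passes electrons to all microsomal P450 enzymes, read 11.72, 11.77, 11.75 and 11.62 in the 6 ppm rats, against 12.61, 12.39, 12.64 and 12.58 in the 0 ppm rats. The exposed values were tightly grouped below all controls, 1.79-fold lower (limma adjusted p = 1.17e-08). Fmo1, a flavin monooxygenase, was 2.26-fold lower (limma adjusted p = 0.0045) and Cyp4b1, a P450 of airway cells, 1.77-fold lower (limma adjusted p = 0.000639). Cyp2a3, a nasal P450, stayed near the top of the range, at 14.20 to 14.50 in the 6 ppm rats and 14.62 to 14.66 in the 0 ppm rats, and was not called (limma adjusted p = 0.11). Its exposed arrays all lay below the controls, and it was called lower after median centring, with only the 8 arrays fitted, with array weights and with the olfactory level as a covariate. In the other direction Sult2b1, the sulfotransferase of cholesterol known from keratinocytes, rose 2.87-fold (limma adjusted p = 0.00167). Against 2 ppm only 2 of the 52 were lower, and Fmo1 and Cyp4b1 were not called.

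Channels and pumps of airway surface fluid were lower for 8 of 29 and higher for 1, with a median of -0.22. Kcnq1, a basolateral potassium channel, was 1.45-fold lower (limma adjusted p = 9.79e-05), and Ano1, a calcium-activated chloride channel, fell by 0.59 on the log2 scale (limma adjusted p = 0.00294). Scnn1b, a subunit of the epithelial sodium channel, was 1.53-fold lower, and Atp6v1b1, a proton pump subunit, 1.67-fold lower (limma adjusted p = 0.00714 and 0.00513). The count was 5 without animal 225, 4 without animal 230, 5 against 0.7 ppm and 0 against 2 ppm, where the median difference of the list was -0.19 and limma called 1010 genes higher (7.1%) and 244 lower (1.72%) in all.

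Of 22 clock genes 3 were lower (13.6%) and 1 higher (4.55%), against 4.68% and 7.54% of all genes tested. Hlf, a PAR bZIP factor under clock control, read 11.15, 11.27, 10.75 and 10.88 in the 6 ppm rats, against 12.07, 11.78, 12.12 and 12.07 in the 0 ppm rats, 2.00-fold lower (limma adjusted p = 0.000774). Dbp, a related factor, was 1.65-fold lower (limma adjusted p = 0.000307), and Clock, a core activator, 1.28-fold higher (limma adjusted p = 0.00265). Clock has 4 probe sets, with log2 differences from -0.09 to 0.39, and 2 of them were called higher when each was tested by itself. The Clock call was lost against 0.7 and 2 ppm, where the difference was 0.16 on the log2 scale. Against 2 ppm 1 of the 22 was lower, and Dbp was not called.

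Few markers of other cell types were called. Macrophage and dendritic genes had 0 of 35 called and MHC class II genes 0 of 9. Mast cell and eosinophil genes had 0 of 20 called, and fibroblast, cartilage and bone genes 0 of 49 (limma). Over all genes tested 12.2% were called, 7.54% higher and 4.68% lower, and 25.0% had an unadjusted p under 0.05. T cell genes had 1 lower of 45, B cell genes 1 lower of 18 and neutrophil genes 1 higher of 21, and 21 of the 45 T cell genes stayed under a log2 signal of 6 on all 8 arrays. Cd74, the invariant chain of MHC class II, read 13.75, 13.30, 12.97 and 12.90 in the 6 ppm rats and 13.33, 13.80, 13.39 and 13.37 in the 0 ppm rats, an overlap with limma adjusted p = 0.253, though it was called lower without animal 316. Cxcl13, which attracts B cells, read 10.51, 10.78, 10.97 and 9.77 in the 6 ppm rats and 11.75, 11.82, 12.02 and 11.56 in the 0 ppm rats. Its 4 exposed values lay below all controls, but the call missed the threshold (limma adjusted p = 0.0592). It was called lower after median centring or cyclic loess, with only the 8 arrays fitted, with array weights, and with the olfactory or fibroblast level as a covariate. Cytokine and chemokine genes had 1 call among 71, an increase of 1.93-fold in Tslp, an epithelial alarm cytokine (limma adjusted p = 0.00356).

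Ciliated cell genes were called higher in 2 of 48 (4.17%) and lower in 0, against 7.54% higher among all genes tested. Foxj1, the factor that programs cilia, differed by -0.07 ± 0.17 (SE; limma adjusted p = 0.844). Secretory cell genes had 2 lower of 40 (5.0%), close to the 4.68% of all genes tested. Muc5ac, a gel-forming mucin, spread from 9.63 to 11.38 at 6 ppm and from 9.61 to 10.95 at 0 ppm, and Pigr, which carries IgA into secretions, missed the threshold (limma adjusted p = 0.0721) but was called lower after median centring and with the olfactory level as a covariate.

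**Figure D3:**
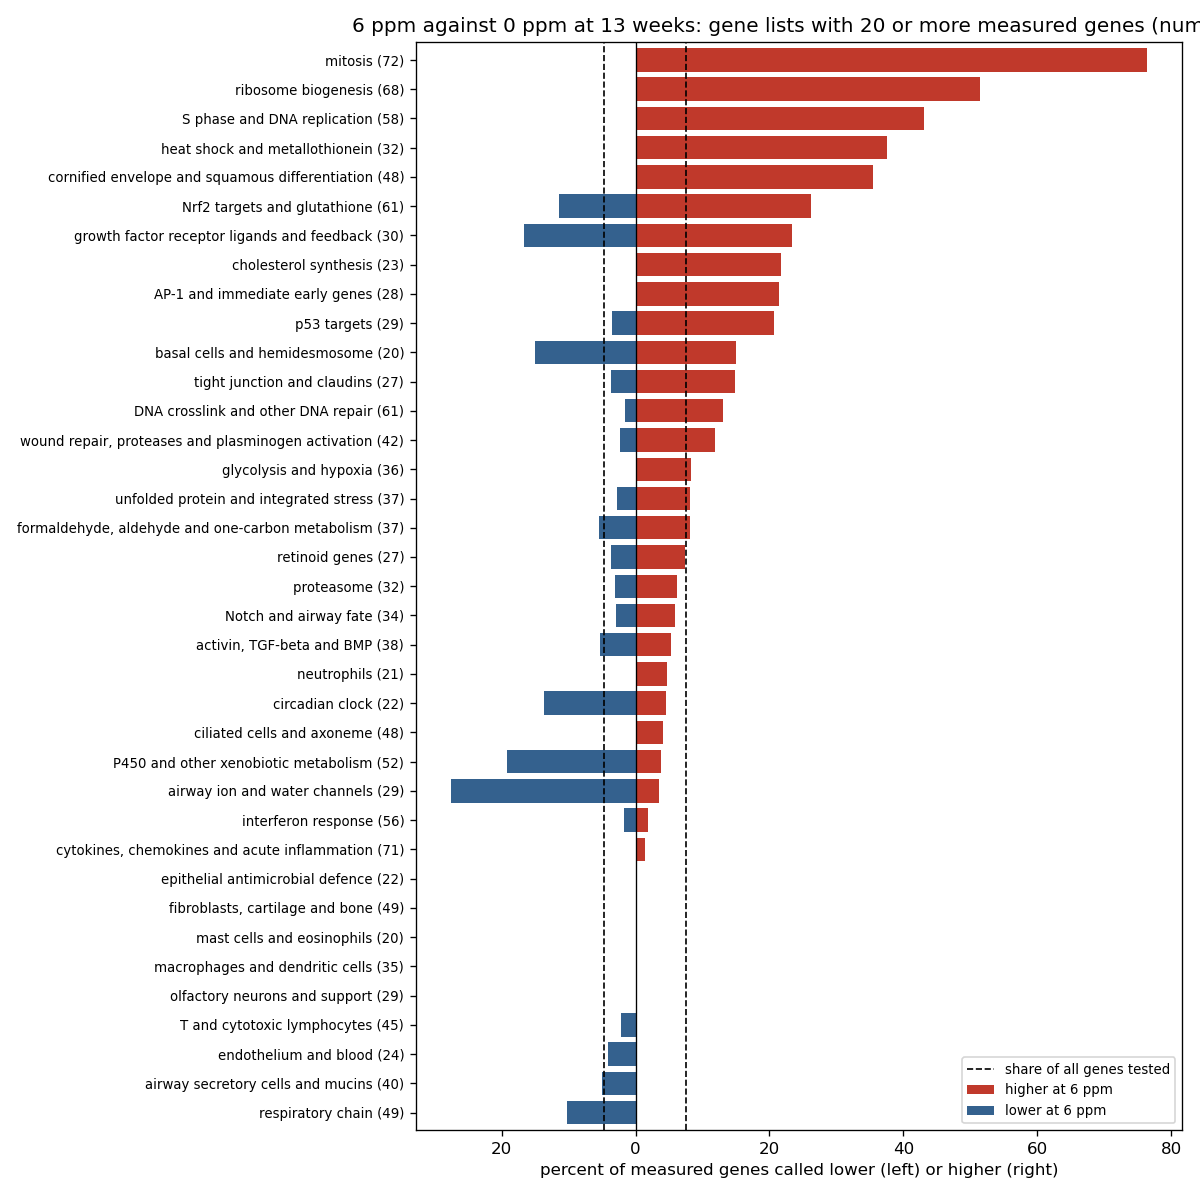
Percent of measured genes called higher (red, right) or lower (blue, left) at 6 ppm than at 0 ppm after 13 weeks, for each list with 20 or more measured genes, whose number stands in brackets. Dashed lines mark the shares over all genes tested, 7.54% and 4.68%, and the mitosis list reaches 76.4% on the right.

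At 5 days the same concentration was set against its own 4 controls, so no arrays are shared with 13 weeks. There limma called 1256 genes (8.83%), 503 higher (3.54%) and 753 lower (5.3%). Of the 1072 genes higher at 13 weeks 351 (32.7%) were also higher at 5 days, which is 69.8% of the 5-day increases. Among decreases 245 were shared, 36.8% of the 13-week and 32.5% of the 5-day calls, and 2 genes were called in opposite directions. In the test of the difference between the 13-week and the 5-day change, limma called 0 of 14217 genes, with 1494 (10.5%) at an unadjusted p under 0.05 and a smallest adjusted p of 0.0874. With array weights limma called 110, after median centring 40.

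Side by side, Areg had a change of 3.48 at 13 weeks and 2.89 at 5 days on the log2 scale, and Slc7a11 2.29 and 2.20. For mitosis genes 37 of 72 were higher at 5 days, and the median change was 0.67 at 13 weeks and 0.41 at 5 days. The mean log2 signal of that list was 7.87 at 6 ppm and 7.23 at 0 ppm at 13 weeks. At 5 days it was 8.08 and 7.67, so both groups read lower at 13 weeks. Sprr1b changed by 1.74 ± 0.40 (SE) at 13 weeks and by 3.98 ± 0.40 (SE) at 5 days, a difference of -2.24 ± 0.57 (SE) that missed the threshold (limma adjusted p = 0.106). Angpt1 differed by -1.30 at 13 weeks and -0.15 at 5 days, where both groups read 4.46 to 5.30 (limma adjusted p for the difference = 0.0874). Hlf differed by -0.06 at 5 days, so that its 13-week change was lower by -0.94 (limma adjusted p for the difference = 0.216). Cxcl13 had a change of -1.28 at 13 weeks and -2.53 at 5 days (limma adjusted p for the difference = 0.494). Among fibroblast, cartilage and bone genes 3 of 49 were lower at 5 days, with a median of -0.02 at 13 weeks and -0.76 at 5 days, and 7 of 35 macrophage and dendritic genes were lower. The RNA integrity number at 5 days was 8.3 to 8.7 at 6 ppm (n = 3) and 7.5 to 8.1 at 0 ppm (n = 4).

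**Figure D4:**
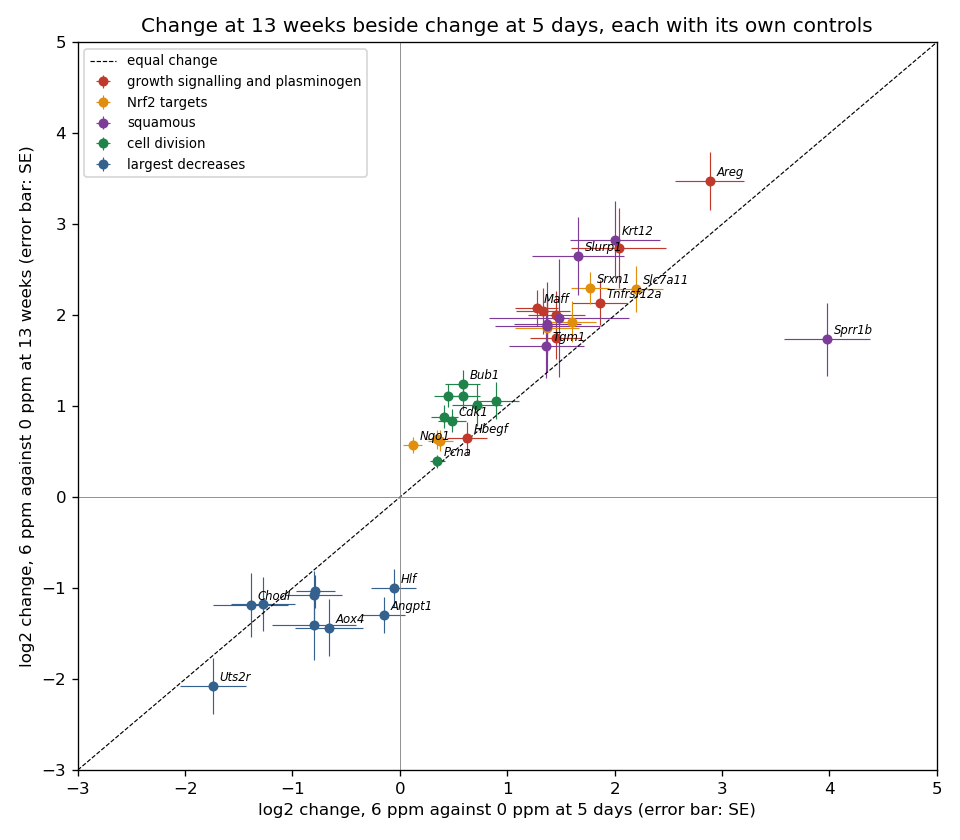
Log2 change of genes at 6 ppm against 0 ppm after 13 weeks (vertical axis) beside that after 5 days (horizontal axis), with SE, coloured by group of genes. Part of the points are named. Most increases lie above the line of equal change, Sprr1b lies far to its right (1.74 and 3.98), and Hlf and Angpt1 changed little at 5 days (-0.06 and -0.15). Many of these genes were picked for their 13-week change, which by itself favours that side of the line. In the test of the difference between the 2 changes limma called 0 of 14217 genes.

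Between 10 and 6 ppm at 13 weeks limma called 566 genes (3.98%), with 295 up (2.07%) and 271 down (1.91%) in the 10 ppm rats, and 83 of them differed by at least 1.5-fold (0.584%). Cdkn2a, which encodes the cell cycle inhibitors p16 and p19 ARF, read 6.95, 8.26, 6.81 and 8.48 in the 10 ppm rats, against 5.55, 5.23, 4.96 and 5.55 in the 6 ppm rats, a difference of 2.30 ± 0.24 (SE; limma adjusted p = 6.77e-09). At 6 ppm it was not called against 0 ppm, where it read 4.61 to 4.91 (limma adjusted p = 0.126), unless only the 8 arrays were fitted. Sprr1b was 2.93 ± 0.40 (SE) higher at 10 ppm, with 10.81 to 12.01 against 7.79 to 9.20 at 6 ppm (limma adjusted p = 1.04e-05). Fst, the activin antagonist follistatin, was 1.43 higher (limma adjusted p = 0.000672), and Areg 1.41 higher (limma adjusted p = 0.00947), a call lost without animal 346, 349 or 320.

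Further up the dose, 33 of 72 mitosis genes were higher at 10 than at 6 ppm, among them Cdk1 by 0.65 on the log2 scale (limma adjusted p = 0.00356). Srxn1 and Hmox1 were not called, at 0.47 and 0.33 (limma adjusted p = 0.112 and 0.374). Gad1, which makes the transmitter GABA, was lower at 10 ppm by 1.22 on the log2 scale (limma adjusted p = 0.0114) and overlapped between 6 and 0 ppm. The Gad1 call was also lost without animal 346, 349 or 320. These counts rested on single arrays, since the total was 99 without animal 346, 39 without 349, 173 without 319 and 157 without 320, and the mitosis count was 8, 5, 11 and 10. With only the 8 arrays of the pair fitted, limma called 0, with 3161 genes (22.2%) at an unadjusted p under 0.05.

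Across concentrations at 13 weeks, Srxn1 averaged 9.03 ± 0.21 at 0 ppm, 9.03 ± 0.12 at 0.7 ppm, 9.69 ± 0.14 at 2 ppm, 11.33 ± 0.32 at 6 ppm, 11.80 ± 0.15 at 10 ppm and 11.84 ± 0.25 at 15 ppm (SD, n = 4 each). Its step from 2 to 6 ppm was the largest between neighbouring concentrations, which are unevenly spaced. Cdk1 averaged 8.65 ± 0.11, 8.61 ± 0.19, 8.74 ± 0.07, 9.50 ± 0.22, 10.15 ± 0.13 and 10.65 ± 0.15 at the same concentrations, with the highest mean at 15 ppm. Cdkn2a stayed between 4.64 and 4.80 up to 2 ppm and reached 5.32 at 6, 7.63 at 10 and 9.84 at 15 ppm. Uts2r averaged 8.52, 7.88 and 7.48 at 0, 0.7 and 2 ppm and 6.45 at 6 ppm, with no call at 2 ppm against 0 ppm (limma adjusted p = 0.287). At 0.7 ppm limma called 0 genes against 0 ppm, with 626 (4.40%) at an unadjusted p under 0.05. At 2 ppm it called 1 (0.00703%), Cdk12, a kinase of transcription, which was named after its values were seen (limma adjusted p = 0.00128).

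**Figure D5:**
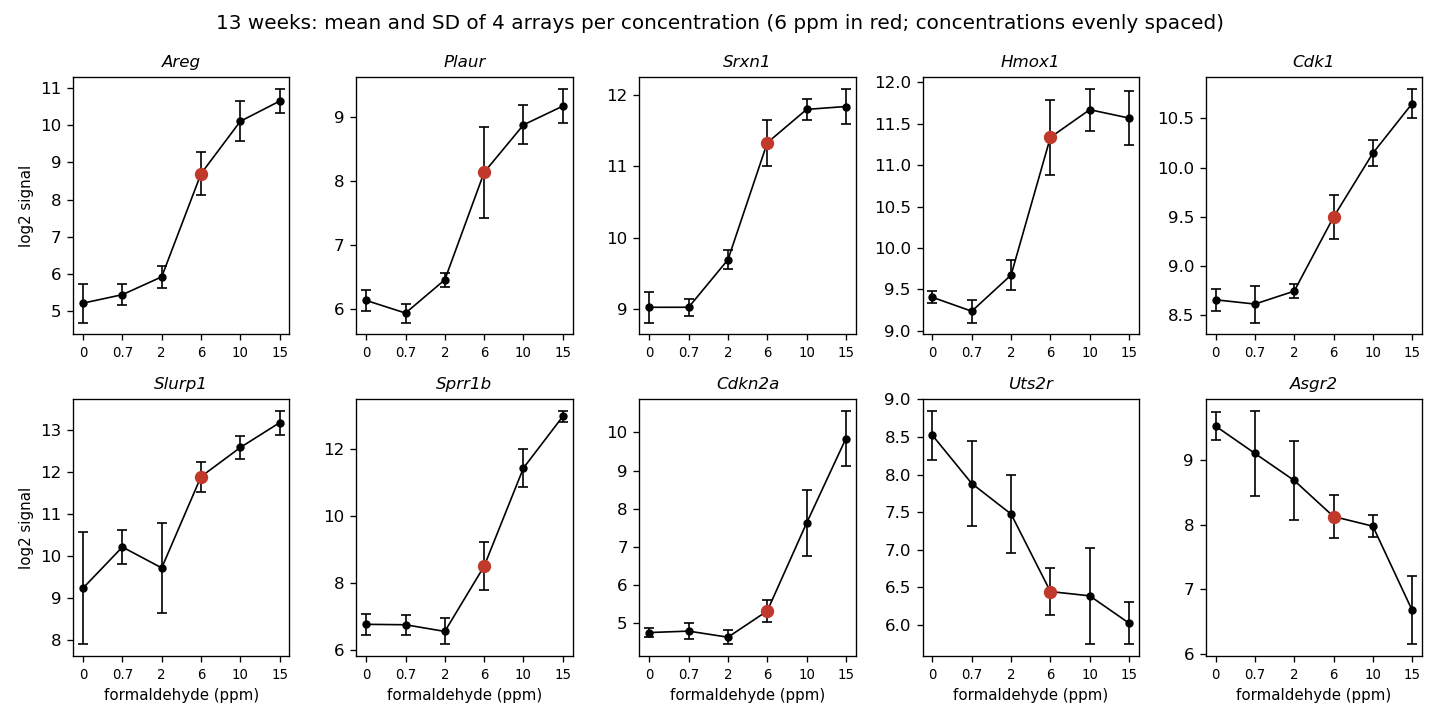
Mean log2 signal and SD of 4 arrays at 13 weeks (vertical axes, scaled per gene) by formaldehyde concentration (horizontal axis, evenly spaced), with 6 ppm in red. Srxn1 and Hmox1 were 0.47 and 0.33 higher at 10 than at 6 ppm and were not called there. Cdk1, Sprr1b and Cdkn2a continue upward (Cdkn2a 5.32 at 6 ppm and 9.84 at 15 ppm). The mean of Uts2r declines from 0 to 6 ppm and differed by -0.06 between 10 and 6 ppm.

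Areg and Srxn1 were also higher when the 6 ppm rats were set against less exposed rats. Against 0.7 ppm at 13 weeks 1021 genes were higher and 529 lower (7.18% and 3.72%), with Areg 3.25 and Srxn1 2.30 above that group on the log2 scale. After 4 weeks, where 0.7 ppm was the lowest concentration used here, 467 genes (3.28%) were called at 6 ppm, 291 higher (2.05%) and 176 lower (1.24%). In that comparison Areg differed by 3.07 (limma adjusted p = 2.27e-09), Srxn1 by 1.86 (limma adjusted p = 2.57e-10), Slurp1 by 2.27 (limma adjusted p = 0.000753) and Bub1 by 0.92 (limma adjusted p = 0.000286).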

How the data were processed

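RNA of nasal epithelial cells was hybridised to single-colour Affymetrix Rat230_2 arrays, with 1 rat per array. Per the submitters' processing notes, the authors used GCOS 1.0 and RMA. The deposited values are log2 signals and were used as deposited, and an aligner or genome build plays no part in them. Gene names came from GEO's annotation of the platform, which can be old. Of 31099 probe sets, 57 were array controls, 436 named several genes and 9831 named none, and all of these were left out. This left 14217 genes, and where a gene had several probe sets the brightest on average was taken. Of those symbols, 14167 matched a current RefSeq symbol.

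Groups came from the dose and time in the labels. All 68 arrays entered a limma fit (version 3.58.1, R 4.3.3; lmFit, eBayes) with a mean for each group. It had 51 residual degrees of freedom, and the prior added 2.85. Benjamini-Hochberg adjustment ran over all 14217 genes, with 0.05 as the threshold for a call. Log2 changes had a median SE of 0.104, and the 4 arrays per group limit the precision. Other values were compared with exact permutation tests. The fit was tested on simulated data. Promoters came from the RefSeq table of build GRCr8.

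The contrast, the 41 gene lists and the rule for naming genes were chosen with earlier results of these data known. The rule names the 15 largest increases and the 15 largest decreases among called genes whose arrays do not overlap. It also names the 4 called members of a list with the smallest adjusted p in each direction, any other list member as an example, the 5 largest differences of each sign against 10 ppm, and 20 single genes. Genes outside it are said to be so. Alternatives were other scalings, a filter on dim genes, other summaries of probe sets, other models of the spread, RNA quality covariates, leaving out each array, and 0.7 or 2 ppm as the control. The levels of the olfactory and fibroblast lists as covariates were added after seeing the data.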

Additional observations from a re-analysis of the deposited data

Results flagged for a closer look

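Among 277 groups of 4 arrays examined, 14 values (5.05%) stood far from the other 3 arrays of their group, and chance gives about 1 in 20. Of these, 6 came from the control of animal 226. That array was high for Cd74 at 13.80, with the others at 13.33 to 13.39, for Pigr at 12.79 (12.31 to 12.33) and for Chordc1 at 9.60 (9.36 to 9.39). It was low for Hlf at 11.78 (12.07 to 12.12) and for Rora, a nuclear receptor of the clock, at 7.06 (7.72 to 7.79). Its mean level of Notch and airway fate genes was 7.80 (7.75 to 7.76). In the control of animal 229 Sfn was high at 11.90 (11.42 to 11.45) and the mean level of nasal gland genes low at 7.36 (7.92 to 7.98). In the control of animal 225 Srxn1 was high at 9.34 (8.87 to 8.95) and Cyp2a3 low at 14.62 (14.65 to 14.66). At 6 ppm, Fst was high in animal 316 at 7.28 (6.25 to 6.39) and Kcnq1 in animal 317 at 8.42 (8.27 to 8.29). Mki67 was low in animal 319 at 8.22 (8.44 to 8.46), and Dnaja1 in animal 320 at 11.64 (11.80 to 11.82). Srxn1, Hlf, Sfn, Mki67, Dnaja1, Chordc1 and Kcnq1 lay on 1 side of the other group on all 8 arrays all the same.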

How the results depend on the processing

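No paired analysis was possible because the labels give animal numbers and no replicate numbers shared between groups. Of 14217 genes limma called 1737 between 6 and 0 ppm at 13 weeks, 957 with only these 8 arrays fitted, and 347 with a minimum of 1.5-fold. The count was 1218 to 1475 when 1 array was left out. For the difference between the 13-week and 5-day changes limma called 0, but 40 after median centring, 6 after cyclic loess, 1 with the mean of a gene's probe sets, 1 with each probe set tested by itself, 110 with array weights, 3 with the actin ratio and 2 with the olfactory level as a covariate. Leaving out 1 array gave 0 to 4, with 1 call without animal 229 and 4 without animal 210. Between 10 and 6 ppm limma called 566, but 1101 after median centring (88.7% higher, against 52.1% as deposited), 0 with only these 8 arrays, 1062 with array weights, 1041 and 1170 with the olfactory and fibroblast levels as covariates, and 83 with a minimum of 1.5-fold. Leaving out 1 array gave 39 to 790, and the cause was not tested. Increases were 71.4% of the calls in that pair after cyclic loess and 65.6% with the mean of a gene's probe sets. Median centring moved the median difference of all genes between 6 and 0 ppm to -0.05, against 0.00 as deposited. Called genes named in the text kept their direction under the alternatives run, while Krt5, Adh5, Foxj1, Muc5ac and Gad1, none of them called between 6 and 0 ppm, changed sign under at least 1. Some alternatives could not change a direction. With each probe set tested by itself, for instance, a named gene was read from its brightest probe set, as in the main fit. Such refits are among those counted next. A call was lost in 83 and gained in 1 of 952 refits without 1 array, and lost in 72 and gained in 13 of 1734 others. The gains were in Cxcl13, Cyp2a3, Pigr, Cd74 and Cdkn2a. Only 4 arrays per group limit the small changes.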

Other observations

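Several genes known from ionocytes and related acid-base cells of the airway were lower at 6 ppm than at 0 ppm after 13 weeks. They were picked after their values were seen and are given as a description. Ascl3, a transcription factor of such cells, read 10.05, 10.27, 10.17 and 10.03 in the 6 ppm rats, against 11.25, 10.99, 11.23 and 11.19 in the 0 ppm rats, without overlap (2.05-fold lower, limma adjusted p = 6.94e-05). Foxi1, which programs ionocytes, was 1.51-fold lower (limma adjusted p = 0.013), a call lost without animal 316 and against 0.7 or 2 ppm. Kcnj16, a potassium channel, was 1.64-fold lower (limma adjusted p = 0.0197), a call lost without any 1 of animals 225, 230 and 316, against 2 ppm and with the actin ratio as a covariate. Cftr, the chloride channel, read 9.07 to 10.16 at 6 ppm and 9.60 to 10.18 at 0 ppm and was not called (limma adjusted p = 0.456). Bsnd, a chloride channel subunit, was not called either (limma adjusted p = 0.0854). At 5 days Foxi1 differed by 0.01 and Ascl3 by -0.79 on the log2 scale.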
